A study of Mus musculus with 5 samples.

Results

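Zinc finger genes numbered Zfp900 to Zfp999 were examined in chromatin accessibility data of the mouse forelimb bud. Of 21631 protein-coding genes on chromosomes 1 to 19 and X of the RefSeq annotation (assembly GRCm38.p6, the coordinates of mm10), 62 carry such symbols. They were chosen by symbol, with earlier results of these data known. They lie on 13 chromosomes. Members whose bodies are at most 500 kb apart form 8 clusters with 42 of the genes, and the other 20 are called single. Only members were counted as neighbours, so a single gene can lie beside other Zfp genes. Zfp940, for example, has Zfp790 and Zfp420 nearby. The assay was ATAC-seq, which reads out where a transposase can enter chromatin, on the anterior forelimb pair of embryos at E11.5 with 40 to 48 somites, 50K cells and 1 genotyped embryo per library. The 3 mutants were PrxCre/+;Smarcc1c/c, in which Cre under the Prx promoter, active in limb mesenchyme, acts on the conditional Smarcc1 allele. The 2 controls were Prx+/+;Smarcc1c/c, which carry the same conditional allele without Cre. BAF155, the product of Smarcc1, is part of the core of the BAF chromatin remodelling complex, and the series asks whether this complex mediates repression by GLI proteins. Limb bud cells in which Prx-Cre is not active, such as ectoderm, endothelium and blood, keep the allele and contribute to the same libraries.

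Genes of this kind encode proteins with arrays of zinc fingers, and many of them carry a KRAB domain. A KRAB domain binds TRIM28, a scaffold that recruits the histone methyltransferase SETDB1, heterochromatin proteins and DNA methyltransferases, and many such proteins silence retrotransposons. The family grows by tandem duplication, which leaves runs of related genes and near-identical copies side by side. Few of the members have a described role in mouse. Zfp932, also known as Znf431, has been described as a repressor of Ptch1, the Hedgehog receptor gene, Zfp979 underlies a strain-specific modifier of transgene methylation, and Zfp982 has been linked to genes of embryonic stem cells.

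RefSeq promoter windows, from 250 bases before to 50 after the start, were found for 55 of the 62 genes (build GRCm38.p6). The 6 below carry the findings that follow. Zfp963 had the highest accessibility at a gene end, Zfp982 lies beside the region seen in the mutants alone, Zfp968 and Zfp971 are near-copies of which Zfp971 had a peak and Zfp968 had none, and Zfp942 and Zfp944 are near-copies that both had one. Capitals mark 3 searched motifs on either strand: CCAAT (or ATTGG) of NFY, GGGCGG (or CCGCCC) of Sp1 and CCGGAAG (or CTTCCGG) of ETS factors. No capitals in these windows belong to more than 1 motif. The windows are chr8:69749913-69750212 (minus strand) for Zfp963, chr4:147442864-147443163 (plus) for Zfp982, chr2:175372186-175372485 (plus) for Zfp968, chr2:178023034-178023333 (plus) for Zfp971, chr17:21962415-21962714 (minus) for Zfp942 and chr17:22361351-22361650 (minus) for Zfp944.
Zfp963: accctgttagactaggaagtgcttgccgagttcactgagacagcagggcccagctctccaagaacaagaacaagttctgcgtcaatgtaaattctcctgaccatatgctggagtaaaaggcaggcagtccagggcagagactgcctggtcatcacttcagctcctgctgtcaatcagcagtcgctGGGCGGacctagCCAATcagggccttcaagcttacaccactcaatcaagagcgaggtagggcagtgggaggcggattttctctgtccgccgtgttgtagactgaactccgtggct
Zfp982: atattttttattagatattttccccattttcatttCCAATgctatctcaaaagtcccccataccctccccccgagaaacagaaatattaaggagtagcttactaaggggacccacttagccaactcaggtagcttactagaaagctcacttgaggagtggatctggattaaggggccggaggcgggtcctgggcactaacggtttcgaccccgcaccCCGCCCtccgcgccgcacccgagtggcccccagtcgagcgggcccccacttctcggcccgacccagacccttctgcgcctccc
Zfp968: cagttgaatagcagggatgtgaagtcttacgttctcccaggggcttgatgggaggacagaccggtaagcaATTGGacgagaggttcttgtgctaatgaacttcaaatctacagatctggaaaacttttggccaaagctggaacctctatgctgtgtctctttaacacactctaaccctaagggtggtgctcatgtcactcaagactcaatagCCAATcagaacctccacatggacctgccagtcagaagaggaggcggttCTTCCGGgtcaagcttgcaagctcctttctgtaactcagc
Zfp971: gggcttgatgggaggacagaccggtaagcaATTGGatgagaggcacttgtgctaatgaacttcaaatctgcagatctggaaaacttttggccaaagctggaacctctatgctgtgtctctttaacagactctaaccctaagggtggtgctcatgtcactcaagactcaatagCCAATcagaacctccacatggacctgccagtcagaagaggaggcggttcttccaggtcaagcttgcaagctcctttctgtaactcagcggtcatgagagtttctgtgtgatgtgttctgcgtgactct
Zfp942: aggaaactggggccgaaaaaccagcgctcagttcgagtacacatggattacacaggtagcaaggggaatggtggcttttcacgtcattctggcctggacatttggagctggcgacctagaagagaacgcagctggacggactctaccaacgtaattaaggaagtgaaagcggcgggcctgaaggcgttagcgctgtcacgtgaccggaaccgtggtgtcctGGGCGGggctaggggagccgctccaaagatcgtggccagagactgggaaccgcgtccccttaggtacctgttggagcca
Zfp944: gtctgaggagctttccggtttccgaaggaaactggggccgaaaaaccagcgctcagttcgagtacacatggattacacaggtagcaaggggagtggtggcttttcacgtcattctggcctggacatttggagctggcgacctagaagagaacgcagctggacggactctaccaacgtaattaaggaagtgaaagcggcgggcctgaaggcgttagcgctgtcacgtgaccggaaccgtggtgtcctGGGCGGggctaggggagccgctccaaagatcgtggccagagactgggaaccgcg

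Each library is a list of peaks called by the authors, so a site either has a peak or has none, and the read depth is unknown. The lists held 36719, 42794 and 27194 peaks in mutants 1, 2 and 3, against 68959 and 60333 in controls 1 and 2. Accessibility under the lowest listed fold is not seen, and that floor was 2.46 to 2.52 in mutants and 2.29 to 2.43 in controls. Overlapping peaks of the 5 lists (1 bp or more) gave 86713 merged regions, of which 45158 had a peak in both controls. A region is called gene-end where a protein-coding gene starts or ends within 1 kb, and distal otherwise. The targeted gene Smarcc1 had a gene-end peak in all 5 lists, with an authors' fold (not scaled between lists) of 9.26, 8.38 and 8.41 in mutants and 10.9 and 10.2 in controls, which says nothing of the deletion itself. Prrx1, whose regulatory sequence gives the Prx-Cre driver its name, had a gene-end fold of 22.7, 22.7 and 18.5 in mutants, against 9.54 and 9.30 in controls. Of 6 forelimb mesenchyme genes, 6, 6 and 4 had a gene-end peak in the mutants, against 6 and 6 in the controls. The hindlimb genes Pitx1 and Tbx4 also had one in 4 and 5 lists. Of 4 ectoderm genes 1, 1 and 1 had one in the mutants, against 2 and 3 in the controls, and of 3 muscle precursor genes 2, 3 and 0, against 3 and 3. Of 4 endothelial genes 1, 1 and 1 had a gene-end peak in mutants, against 2 and 1 in controls, of 4 blood genes 2 in every list, and of 3 neural crest genes 2, 3 and 2, against 3 and 2. The part of list length and of these markers in the results below was not tested.

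The ends of the zinc finger genes were as often accessible in mutants as in controls, to within 1 gene. A gene-end peak was present at 36, 36 and 36 of the 62 genes in mutants 1, 2 and 3, against 37 and 37 in controls 1 and 2. That is a difference of 1 gene, with every mutant below both controls (exact two-sided permutation test over libraries, p = 0.2, the smallest p that 3 against 2 libraries can give). With peaks of −log10 q under 10 left out, the counts were 25, 32 and 31 in mutants, against 37 and 37 in controls. In these bulk libraries, fewer cells with an open site and less opening per cell cannot be told apart. Of the members, 34 had a gene-end peak in all 5 lists, or 54.8%, against 56.6% of all protein-coding genes. Another 24, or 38.7%, had none in any list, against 32.0% of all protein-coding genes. Members thus had one at 58.1% in every mutant and 59.7% in both controls, and the 305 Zfp genes with other numbers at 83% to 84.9% in mutants and 85.9% to 86.6% in controls. Of all protein-coding genes, 61.7%, 63.6% and 57.8% had one in mutants, against 65.8% and 64.9% in controls. Every mutant was below both controls there too, with a difference of -4.30 points, against -1.61 points for members.

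**Figure D1:**
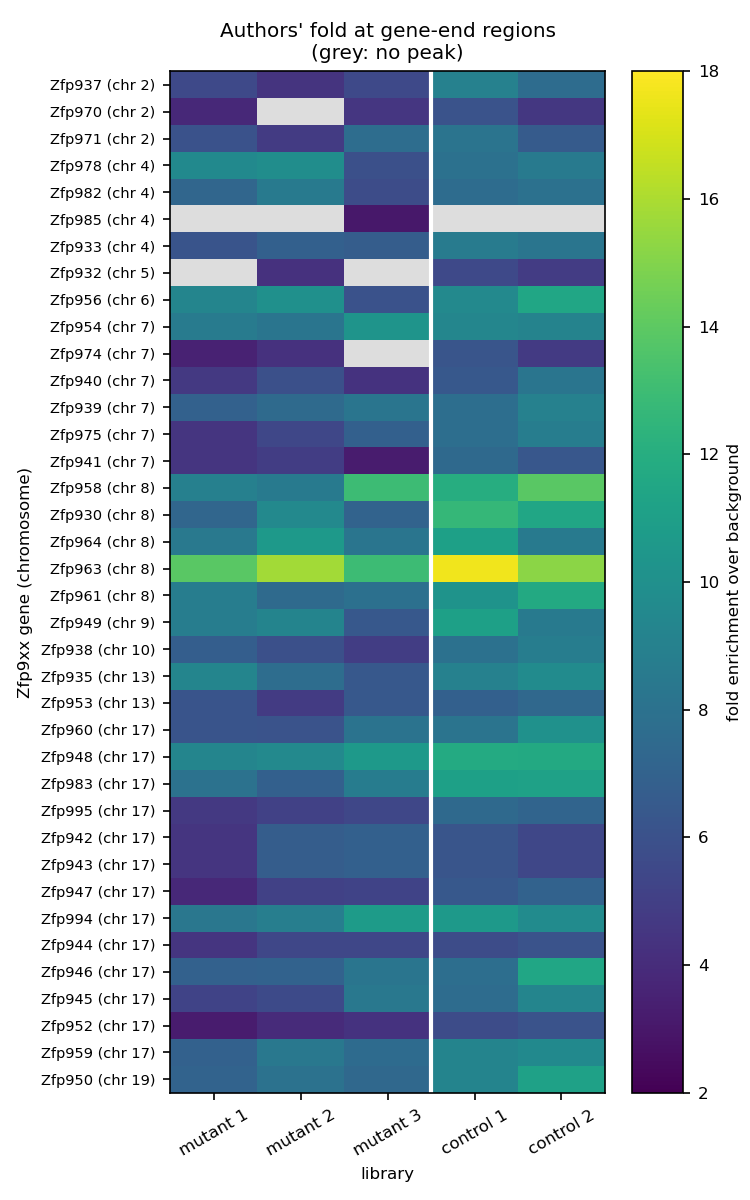
Authors' fold enrichment at the gene-end region of each Zfp9xx gene (rows, with chromosome) in each library (columns, mutants left of controls); colour gives the fold over background and grey marks no peak. The 34 genes with a peak in all 5 lists fill whole rows, and Zfp970, Zfp932, Zfp974 and Zfp985 have gaps.

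The fold enrichment is the authors' value per peak, computed within each library and not scaled between libraries, so it orders genes within a list. Zfp963, in the chromosome 8 cluster, had the highest gene-end fold of the members in every list but mutant 3. Its region at chr8:69749416-69750614 reached 13.9, 15.8 and 13.0 in mutants 1, 2 and 3, against 17.7 and 15.2 in controls 1 and 2. In mutant 3 the single gene Zfp958 was level with it, at 13.0. Over the 34 genes with a gene-end peak in all 5 lists, the median fold was 6.94, 6.98 and 6.90 in the mutants, against 8.15 and 8.76 in the controls. Over all 12250 such genes it was 7.25, 8.38 and 6.56 in the mutants, against 9.19 and 8.62 in the controls, so the members were below the median of all genes in 3 lists and above it in mutant 3 and control 2. The lowest were Zfp952 in mutants 1 and 2 (3.24 and 3.94), Zfp941 in mutant 3, Zfp944 in control 1 (5.72) and Zfp942 in control 2 (5.39).

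The 10 genes of the chromosome 17 cluster, from 21565816 to 22867309, all had a gene-end peak in all 5 lists. Zfp948 was the highest of them by its mean over the lists, with a fold of 9.26, 9.53 and 10.6 in mutants and 11.8 and 11.7 in controls. In mutant 3 Zfp994 was above it, at 10.8. Zfp942 and Zfp943 share 1 region between them at chr17:21961873-21963083, with a fold of 4.47, 6.73 and 6.90 in mutants and 6.24 and 5.39 in controls. The core of the Zfp942 promoter, 200 bases, differs by 1 edit from that of Zfp944, printed above with the same GGGCGG. The Zfp944 region, which it shares with Zfp758, had 4.47, 5.42 and 5.38 in mutants and 5.72 and 6.06 in controls. The core of the Zfp943 promoter matches that of Zfp758 without an edit, so both shared regions are pairs of near-copies. In the chromosome 8 cluster all 3 genes, Zfp930, Zfp964 and Zfp963, had a gene-end peak in all 5 lists, and Zfp930 had the most regions there, 4.

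Gene-end peaks were present in some of the lists at 4 genes. Zfp932, the gene described as a repressor of Ptch1, had one in mutant 2 alone of the mutants (fold 4.27) and in both controls (5.55 and 4.85), at chr5:109996207-109996761. Zfp970 lacked it in mutant 2 and had 3.86 and 4.54 in mutants 1 and 3, against 6.07 and 4.58 in controls. Zfp974 lacked it in mutant 3 and had 3.55 and 4.27 in mutants 1 and 2, against 6.24 and 4.72 in controls. At all 3 genes both controls had the peak and at least 1 mutant did, so none meets the rule of presence in both controls and no mutant. Zfp985 had a gene-end peak in mutant 3 alone, with a fold of 3.03, at the end away from its start. The folds of these genes in the mutants are close to the median of all peaks in the mutant lists, 4.17, 3.94 and 4.37, except for that of Zfp985, which is lower.

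For 12 genes no list held a peak in the gene or within 20 kb of it. They are Zfp968, Zfp965, Zfp966, Zfp967, Zfp973 and Zfp972 on chromosome 2, Zfp980 and Zfp987 on chromosome 4, Zfp951 on chromosome 5, Zfp977 and Zfp936 on chromosome 7 and Zfp996 on chromosome 12. Chromosome 2 clusters A (175372034 to 175931100) and B (176521004 to 176681090) had no region at all. In cluster C on the same chromosome (177464742 to 178078425) only Zfp971 had a gene-end peak in all 5 lists, with a fold of 6.02, 4.76 and 7.74 in mutants and 8.15 and 6.60 in controls. In the chromosome 7 cluster Zfp975 was the only one of 4 genes with a gene-end peak in all 5 lists, with 4.47, 5.42 and 6.90 in mutants and 7.80 and 8.76 in controls. Some genes without a gene-end peak had one at a start that the annotation places inside the gene model. These are Zfp976 on chromosome 7, with a region at 42642223 to 42643125, and Zfp984 on chromosome 4, with a region at 147809165 to 147810282, both in all 5 lists. In the chromosome 13 cluster Zfp935 had a gene-end peak and Zfp934 a peak in its body, both in all 5 lists.

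Promoters of genes without a gene-end peak were mostly near-copies of another promoter. The core of each promoter window was set against every other promoter in the RefSeq table by edit distance, and identity is the share of its 200 bases without an edit. Of the 20 such genes with a promoter window, 15 were at least 90% identical to another. Genes were classed here by peaks at the ends of the gene model, not at the promoter window. Zfp976 (92.5% identity) and Zfp984 (95%) are thus among the 15, although their annotated starts had a peak in all 5 lists. The median identity to the nearest other promoter was 72.0% over 31 promoters whose gene had a gene-end peak in all 5 lists, 91.5% over the 4 with a peak in some lists and 95.2% over the 20 with none. For the 12 genes with no region within 20 kb it was 98.8%. At 95% identity or more stood 19 genes, of which 7 had a gene-end peak in all 5 lists and 11, Zfp984 among them, had none. Below 90% stood 29 genes, of which 23 had one in all 5 lists and 5 had none. The sources used here do not say how reads that match several copies were placed. An absent or a present peak at such a copy is therefore uncertain, and the part of read placement was not tested.

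**Figure D2:**
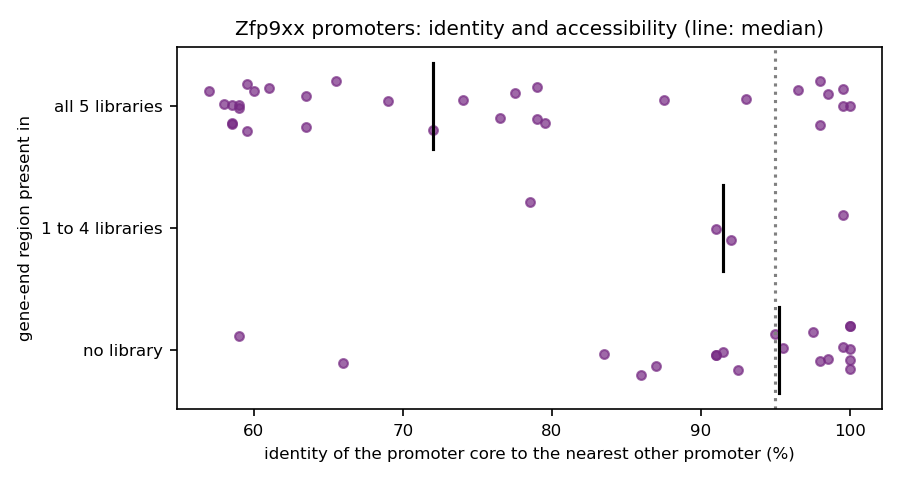
Identity of each Zfp9xx promoter core (200 bases) to the nearest other promoter in the RefSeq table (x axis, %), by the number of lists with a gene-end peak (rows); points are genes and lines medians. Genes without a gene-end peak have a median of 95.2% and those with one in all 5 lists 72.0%. Zfp976 and Zfp984 count as genes without one, although their annotated starts inside the gene model had a peak in all 5 lists.

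The cores of Zfp968, Zfp966 and Zfp967 are identical, as are those of Zfp965 and Zfp973, and Zfp968 and Zfp965 differ by 1 edit. None of these 5 genes had a peak. The Zfp971 promoter, which had a peak in all 5 lists, is 98.5% identical to that of Zfp968, with 3 edits in 200 bases. The windows printed above show that the CTTCCGG of Zfp968, from base 10 to base 16 after the start, has no counterpart among the capitals of Zfp971. Zfp970, whose peak was missing in mutant 2, is 2 edits from Zfp968. Near-identity and a peak in all 5 lists thus also occurred together, as at Zfp942, Zfp943, Zfp944 and Zfp971.

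CCAAT was found in 42 of the 55 members' promoters, or 76.4%, against 39.4% of all 17274 protein-coding promoters and 44.8% of 250 promoters of other Zfp genes. CCGGAAG was found in 14, or 25.5%, against 12.0% of all promoters and 21.6% of those of other Zfp genes. GGGCGG was found in 20, or 36.4%, against 46.9% and 46.4%. The 10-letter palindrome of NRF1 was in 0 of 55, against 1.34% of all promoters and 4.4% of those of other Zfp genes. Both strands were searched. The median number of CpG sites in the window was 8 in members, against 15 in other Zfp genes and 14 in all promoters. CCGGAAG was in 9 of the 12 genes without a region and in 5 of the 43 with one, and near-copies share their letters, so these are few independent sequences.

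Counted over all regions near them, the members had about as many in mutants as in controls, although the mutant lists were shorter. In all, 167 regions lay in or within 20 kb of the 62 genes, of which 53 were gene-end and 114 distal. The number with a peak was 93, 102 and 93 in mutants 1, 2 and 3, against 100 and 102 in controls 1 and 2. The means were 96.0 ± 5.20 and 101 ± 1.41 (SD, n = 3 mutants and 2 controls), a difference of -5.00 that is within the spread of the mutants (exact two-sided permutation test, p = 0.6). With all lists cut to the length of the shortest, by keeping the peaks of highest fold, the direction turned, with 74, 79 and 93 in mutants, against 57 and 57 in controls. Mutant 3 has the shortest list and was not cut. These regions made up 0.287%, 0.263% and 0.394% of the regions in the mutants, against 0.153% and 0.181% in the controls. The share of the 167 regions with a peak minus the share of all merged regions with one was 18.3, 16.3 and 28.4 percentage points in mutants, against -15.4 and -3.93 points in controls. That difference of 30.7 points had no overlap between genotypes (exact two-sided permutation test, p = 0.2, the smallest possible), and it was 20.4 points with peaks of −log10 q under 10 left out. For distal regions alone it was 39.2 points, also without overlap (exact permutation test, p = 0.2). For gene-end regions it was 2.59 points and the genotypes overlapped (exact permutation test, p = 0.8). The gene-end values were 10.6, -2.16 and 17.8 points in mutants, against 4.68 and 7.68 in controls. Of 27 such tests over libraries, 21 reached the smallest p, and after Benjamini-Hochberg adjustment the lowest of these permutation p-values was 0.257. Over all regions of other Zfp genes the difference was 15.4 points, also without overlap between genotypes (exact permutation test, p = 0.2). Whether it differs from the 30.7 points of the members was not tested.

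Of 77 regions with a peak in both controls, 1 had none in any mutant, or 1.30% (exact 95% binomial interval 0.0329% to 7.02%, for counting error only), where 30.4% of all 45158 regions of both controls had none. Among distal regions it was 0 of 31, which allows up to 11.2%, where 42.0% of all distal regions had none. Distal regions here include those at an annotated start inside the gene model, as at Zfp976 and Zfp984. Among gene-end regions it was 1 of 46, or 2.17%, against 4.64% of all gene-end regions. At the rates of all regions of the same class and the same decile of control strength, 14.6 of the 77 would have been absent, 13.9 of them distal. For gene-end regions 0.694 would have been absent, where 1 was. Of the 31 distal regions, 18 lay in the chromosome 4 cluster, described below, where 9.96 would have been absent. The other members had 13, where 3.97 would have been, and 0 of 13 allows up to 24.7%. Other Zfp genes had 86 of 334 distal regions absent, or 25.7%, and 37.3% of distal regions within 20 kb of any protein-coding gene were absent. Present in all 5 lists were 54 of the 77, or 70.1%, against 43.4% of all regions of both controls. By class these were 40 of 46 gene-end regions, or 87.0% against 81.3%, and 14 of 31 distal regions, or 45.2% against 26.4%.

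**Figure D3:**
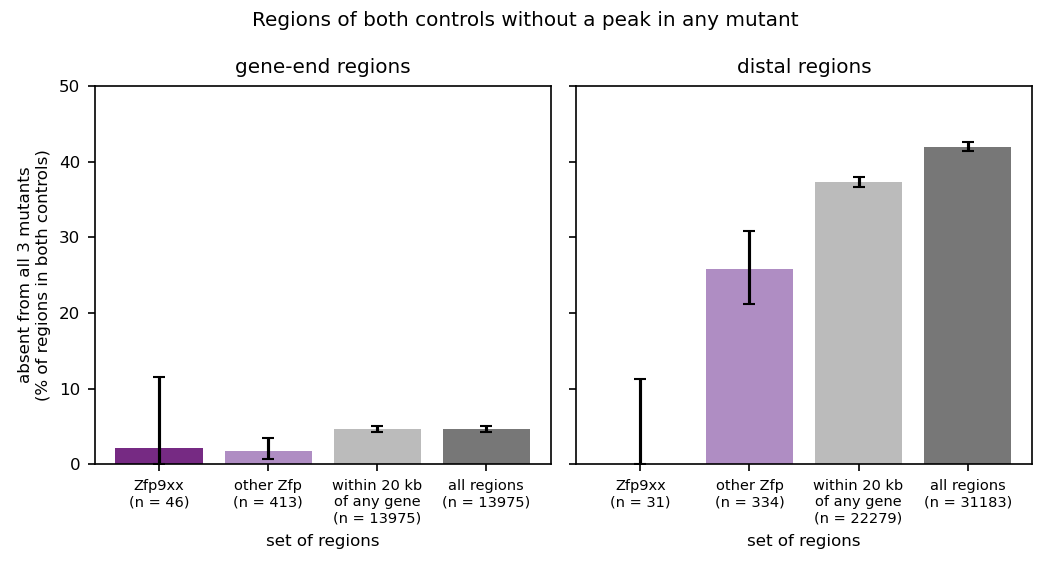
Share of regions with a peak in both controls that had none in any of the 3 mutants (y axis, %; bars start at 0, error bars are exact 95% binomial intervals for counting error), for gene-end and distal regions, in Zfp9xx genes, other Zfp genes, all regions within 20 kb of a gene and all regions. The distal Zfp9xx bar is at 0 of 31, against 42.0% of all distal regions. Distal regions include those at annotated starts inside the gene model.

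The 1 absent region lay at chr8:71988614-71989066, with a fold of 3.64 and 3.37 in the controls. It is within 20 kb of Zfp961, but its nearest gene is Cyp4f18, a cytochrome P450 gene, so no region whose nearest gene is a member met that rule. Zfp961 itself had a gene-end peak in all 5 lists. These counts depend on asking for absence from all 3 mutants and presence in both controls. Without mutant 1 the share was 3.90% and without mutant 2 5.13%, where all regions had 35.1% and 36.4%. Without mutant 3 it was 8.97% (7 of 78), without control 1 12.5% and without control 2 15.0%, where all regions had 31.9%, 41.0% and 47.8%. With peaks of −log10 q under 10 left out it was 13.5%, 7 of 52, where all regions had 23.9%, and with those under 5 left out 6.25%, 4 of 64, where all had 27.9%. With lists of equal length it was 3.85%, 2 of 52, where all regions had 13.4%, so both the members' share and the distance to all regions changed.

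A peak in all mutants and neither control was found at 1 of the 167 regions, where 0.0484% of all merged regions had that pattern, 42 in number. Without mutant 3 there were 8 such regions, where all merged regions had 440. Without control 2 there were 6, where all had 155. Leaving out mutant 1, mutant 2 or control 1 gave 2, where all had 129, 114 and 164. Peaks in at least 1 mutant and neither control were found at 42 of 167 regions, or 25.1%, against 11.8% of all regions. Peaks in a control and no mutant were found at 25, or 15.0%, against 45.8%. Most of the first kind lay in 1 cluster: 39 of them were among the 95 regions of the chromosome 4 cluster, and 3 among the 72 regions of all other members.

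The chromosome 4 cluster holds 14 of the genes between 145510759 and 147849126, and 95 of the 167 regions, 88 of them distal. Its regions had a median width of 384 bp, against 776 bp for the other members and 475 bp for all regions, and a median fold of 3.70. They were dense, at 64.4 per Mb of gene and flank against 48.7 per Mb around all protein-coding genes. Of the 10 promoter windows of the cluster, 6 were at least 90% identical to another promoter. How reads that match several copies were placed is not known, so peaks present here are uncertain too. The part of read placement in the counts below was not tested. A peak was present at 36, 47 and 39 distal regions in mutants 1, 2 and 3, against 33 and 35 in controls 1 and 2. The means were 40.7 ± 5.69 and 34.0 ± 1.41 (SD, n = 3 and 2), and every mutant lay above both controls (difference 6.67, exact two-sided permutation test, p = 0.2, the smallest possible). With all lists cut to the length of the shortest, the counts were 25, 28 and 39 in mutants, against 3 and 5 in controls, and with peaks of −log10 q under 10 left out they were 9, 8 and 4, against 3 and 3. The cut by length kept the peaks of highest fold, so it left mutant 3 whole and took most from the controls. In every list the cluster's distal regions had a median fold under that of the whole list. In controls it was 3.47 and 3.23, against 3.99 and 3.77. The part of that cut in these counts was not tested. The genotypes overlapped with peaks of −log10 q under 5 left out, at 25, 28 and 16 in mutants, against 16 and 16 in controls (exact permutation test, p = 0.6). They also overlapped within gene bodies, at 14, 18 and 12, against 12 and 13 (exact permutation test, p = 0.6). With an overlap of at least 50 bp they met, at 36, 47 and 40, against 33 and 36 (exact permutation test, p = 0.4). Outside this cluster the number of members' regions went the other way, with 52, 51 and 48 in mutants, against 61 and 62 in controls (difference -11.2, exact two-sided permutation test, p = 0.2). With lists of equal length these were 44, 47 and 48 in mutants, against 50 and 48 in controls, so the genotypes overlapped. The share of these regions with a peak, minus that of all merged regions, was 34.9, 26.0 and 39.4 points in mutants. In controls it was 9.44 and 21.1 points. Inside the cluster it was 5.80, 8.89 and 20.1 points in mutants, against -34.2 and -22.9 in controls. By this measure both parts were higher in mutants, but it equalises neither list length nor the mix of gene-end and distal regions. For gene-end regions alone the genotypes overlapped, with differences of 2.43 points outside the cluster (exact permutation test, p = 0.8) and 3.62 points inside it. For distal regions every mutant lay above both controls in both parts. Outside the cluster these were 18.6, 14.9 and 21.3 points, against 0.610 and 12.8, and inside it the difference was 47.3 points. The part of list length was not tested. Of the cluster's 23 regions in both controls, 0 were absent from all mutants, which allows up to 14.8%, and 12 were in all 5 lists.

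**Figure D4:**
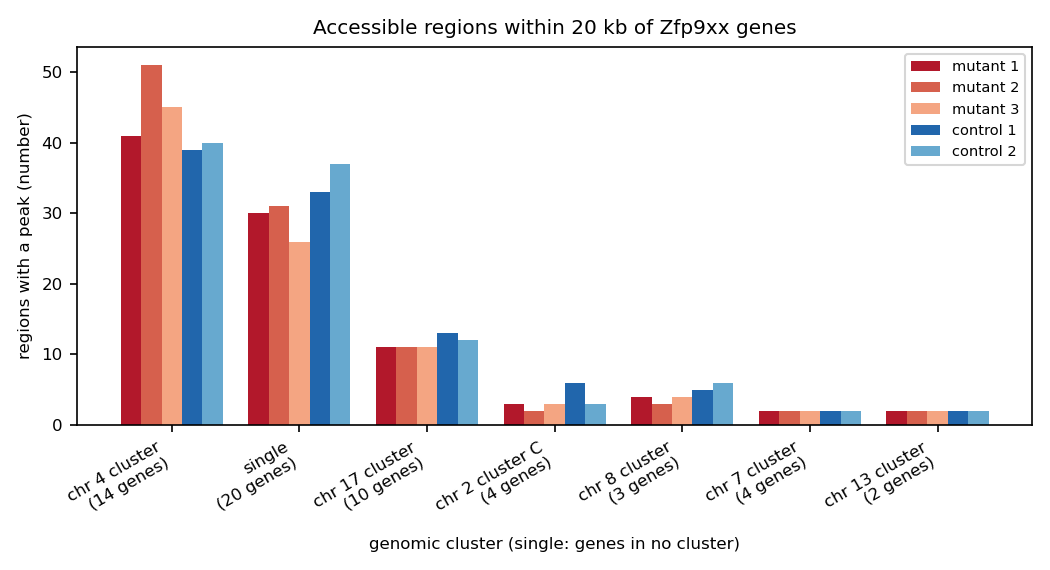
Number of regions with a peak within 20 kb of the Zfp9xx genes of each genomic cluster (x axis) in each library (bars, mutants left of controls). In the chromosome 4 cluster the mutants have 41, 51 and 45 regions, against 39 and 40 in the controls, and chromosome 2 clusters A and B have none.

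Which regions of the chromosome 4 cluster had a peak did not follow genotype alone. Of its regions 43, or 45.3%, had a peak in 1 list only, against 41.1% of all merged regions. The shared share of 2 lists is the number of regions in both over the number in either. It was 0.508 for mutants 1 and 2, and 0.491 and 0.448 for mutant 3 with controls 2 and 1. For mutants 1 and 2 with control 2 it was 0.446 and 0.422, and for the controls 0.411. It was lower between mutants 1 and 3 (0.303) and mutants 2 and 3 (0.297), and lowest between mutants 1 or 2 and control 1 (0.250 for both). Mutant 3 thus shared more of these regions with either control than with either of the other mutants. Over the other members' regions, of which 46 of 72 are gene-end, the same quantity was 0.719 to 0.800 for all 10 pairs. Over all distal regions it was 0.208 to 0.522, and over the distal regions of the cluster 0.190 to 0.482, so these ranges lie close together. Over all distal regions mutant 3 had 0.447 and 0.342 with mutants 1 and 2, against 0.208 and 0.249 with controls 1 and 2, whose lists are longer. Over the distal regions of the cluster it had 0.250 and 0.265 with mutants 1 and 2, against 0.412 and 0.451 with controls 1 and 2. Peaks in mutants 1 and 2 alone were found at 6 of the cluster's 95 regions, where 0.457% of all merged regions had that pattern. Peaks in mutant 3 and control 1 alone were also found at 6, where 0.265% of all merged regions had them.

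Single genes of the cluster differed in which lists were high. Around Zfp981 there were 5 and 8 regions in mutants 1 and 2 and 0 in mutant 3, against 0 and 1 in controls. Around Zfp992, whose flank overlaps that of Zfp981, there were 8, 9 and 2 in mutants, against 3 and 5 in controls. Zfp993, whose gene model overlaps that of Zfp981 and shares most of its regions with it, had 2, 6 and 1 in mutants, against 1 and 0 in controls. At these 3 genes mutants 1 and 2 had the most regions, in mutant 1 at Zfp993 by 1 region. They share regions, so they are not separate cases. Other genes had the reverse. Zfp984 had 1, 2 and 6 regions in mutants, against 6 and 3 in controls. Zfp933 had 3, 3 and 7 in mutants, against 7 and 4 in controls, and Zfp990 had 0, 0 and 3, against 4 and 1. At these 3 genes mutant 3 was at or above control 2 and mutants 1 and 2 were below both controls. Most regions of Zfp984 were also counted at Zfp933, so Zfp984 and Zfp933 are not separate cases. Zfp979, the gene of the transgene methylation modifier, had no region in mutants 1 and 2 and 1 in mutant 3, against 3 and 1 in controls, and none at a gene end.

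Zfp978 had the most regions of all members, 27, and the highest gene-end fold in the cluster by its mean over the lists. Its gene model is 267 kb long and contains Zfp991 and Zfp988, whose 9 and 6 regions are all among the 27. The gene-end fold of Zfp978 was 9.57, 9.85 and 5.89 in mutants 1, 2 and 3, against 7.98 and 8.62 in controls. Its regions numbered 15, 18 and 12 in mutants, against 9 and 13 in controls, so the genotypes overlapped. Zfp982 followed with 26 regions, and a fold of 7.25, 8.54 and 5.72 in mutants, against 7.63 and 7.95 in controls at its start (chr4:147443012-147443896). Zfp933 had 6.17, 6.90 and 6.73 in mutants, against 8.67 and 8.22 in controls, and so ranked above Zfp978 in mutant 3 and control 1 and below it in the other lists.

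The region found in all mutants and neither control lay at chr4:147430718-147431378, 11.7 kb before the start of Zfp982. Its fold was 5.40, 5.26 and 3.53 in mutants 1, 2 and 3. The next region, 75 bp away, had a peak in all 5 lists, with a fold of 5.40, 6.57 and 4.88 in mutants and 3.64 and 4.04 in controls, so the controls were accessible beside it. The sequence of these regions is not shown, since no genome of this build was used here. Before the start of Zfp982 there were 7, 9 and 6 regions in mutants, against 3 and 6 in controls. After its end there were 2, 2 and 8 in mutants, against 7 and 5 in controls. Before the start, mutants 1 and 2 were above both controls and mutant 3 was level with control 2. After the end, mutant 3 was above both controls and mutants 1 and 2 were below them.

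**Figure D5:**
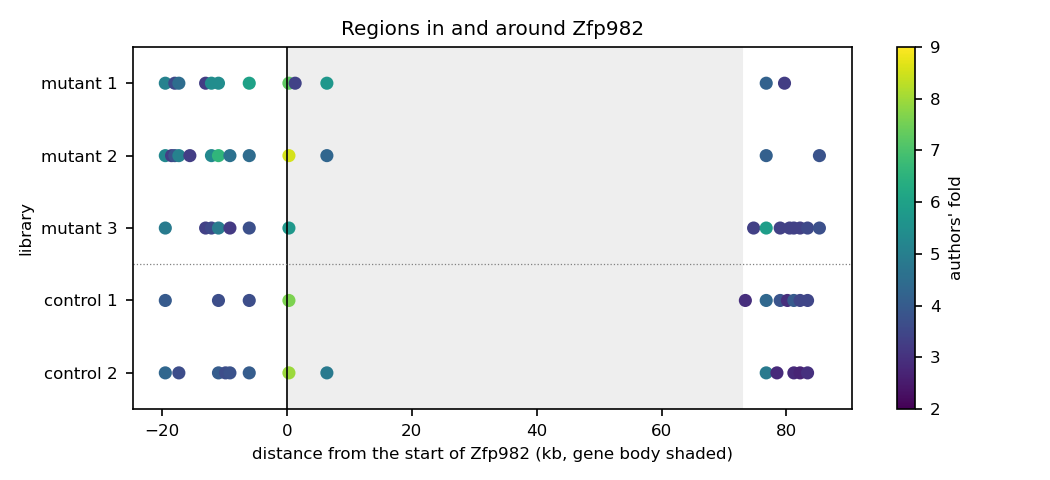
Regions around Zfp982 by distance from its start (x axis, kb) in each library (rows, mutants above controls); each dot is a region with a peak and its colour gives the authors' fold. Before the start the rows hold 7, 9 and 6 regions in mutants, against 3 and 6 in controls, and after the gene's end 2, 2 and 8, against 7 and 5.

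Of 26 genes for partners of KRAB repression, 21 had a gene-end peak in all 5 lists and 4 had none in any. Of all protein-coding genes, 56.6% had one in all 5 lists and 32.0% had none. Trim28, the gene of the scaffold, had a fold of 11.7, 13.3 and 12.6 in mutants, against 13.2 and 13.3 in controls. Setdb1, the gene of the methyltransferase, had no gene-end peak in mutant 1 and 4.43 and 3.36 in mutants 2 and 3, against 3.81 and 4.58 in controls. Those without were Dnmt1 and Dnmt3a, for DNA methyltransferases, Tasor, for a subunit of the HUSH silencing complex, and Zfp57, for a KRAB protein of imprinted loci. Only peaks within 1 kb of the ends of the gene model were counted, so a peak at a start inside it is missed. In or within 20 kb of these 4 genes lay 19, 23, 1 and 3 regions, of which 7, 11, 1 and 2 had a peak in both controls. By list, 21, 22 and 22 of the 26 genes had a gene-end peak in mutants, against 22 and 22 in controls. Of 101 regions of both controls in or within 20 kb of these genes, 5 were absent from all mutants, where 30.4% of all such regions were. They lay at Dnmt3a, with 2, and at Trim28, Dnmt3b and Resf1, with 1 each. The 101 regions were not split by class, where 4.64% of all gene-end and 42.0% of all distal regions were absent. That share, 4.95%, was 9.71% without mutant 2, 19.7% without control 1 and 19.4% without control 2, where all regions had 36.4%, 41.0% and 47.8%.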

How the data were processed

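ATAC-seq peak lists of 5 libraries were used, 3 mutant and 2 control. The labels' genotype gave the groups, and replicate numbers, in sample order, pair no libraries. Per the submitters' processing notes, the authors used bcl2fastq 2.20.0, Bowtie2 2.3.5, mm10 and MACS2; its version and options, duplicate removal, cut-site shift and the placement of reads that match several copies do not appear in the sources used here. Without the shift, borders move by a few bases. The authors deposited 1 list per library, not pooled and without header, with start, end and summit positions, a score (not used), a fold ratio, and −log10 p-value and −log10 q-value per peak. Depth is unknown, so no interval covers single peaks.

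Peaks on chromosomes 1 to 19 and X were merged (1 bp) with Python 3.11.15, pandas 2.3.3, numpy 2.4.6, scipy 1.17.1 and edlib 1.3.9.post1. Genes and promoters came from RefSeq tables of GRCm38.p6; 7 members had no promoter window. No protein table was used, so the planned zinc finger counts were not made. Differences between genotypes used an exact two-sided permutation test over libraries (10 splits); shares have exact 95% binomial intervals. The code was tested on simulated data. The members, the lists and the rule for named genes (a region in 1 genotype alone, no region, a gene-end peak in some lists, or leading a cluster by fold, regions or promoter identity) were chosen with earlier results of these data known, and the other members named were picked after their values were seen. Alternatives were −log10 q of at least 5 or 10, lists at equal length (the 27194 peaks of highest fold in each), a common fold floor, 50 bp overlap, other distances, and leaving out each library.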

Additional observations from a re-analysis of the deposited data

How the results depend on the processing

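No paired analysis was possible because the replicate numbers follow sample order and pair no libraries. The fewer gene-end genes, the fewer regions outside the chromosome 4 cluster, the more distal regions in that cluster, and the higher share of members' regions relative to all regions in mutants kept their direction under every alternative run; the last ranged from 20.4 points at −log10 q of at least 10 to 40.9 points without control 2. Regions per library turned from -5.00 to 25.0 (means 82.0 in mutants and 57.0 in controls) with lists cut to 27194 peaks. The share of both-control regions absent from all mutants, 1.30%, was 13.5% at −log10 q of at least 10, where all regions had 23.9%, and 0 within 5 kb, in gene bodies, and where a member is the nearest gene; it ranged from 3.90% to 15.0% when 1 library was left out (all regions 31.9% to 47.8%), and was 3.85% at equal length (all regions 13.4%) and 6.25% at −log10 q of at least 5 (all regions 27.9%). The count of regions in all mutants and neither control, 1, was 2 at −log10 q of at least 10 (9 over all regions), 9 at equal length (677 over all regions) and 0 within 5 kb or in gene bodies, and 2 to 8 with 1 library left out (8 without mutant 3 and 6 without control 2, with 440 and 155 over all regions). The share absent near KRAB partners, 4.95%, was 0 at equal length (all regions 13.4%) and 5.88% to 19.7% with 1 library left out (all regions 31.9% to 47.8%). At −log10 q of at least 10, Zfp970, Zfp932 and Zfp974 kept a gene-end peak in 2 lists each, and Zfp985 in 0. The causes were not tested. The chromosome 4 counts, those without it and the KRAB share were added after seeing the data. Exact permutation tests reach 0.2 at best with all 5 libraries, so no p here speaks to stability. With depth unknown, accessibility under the lowest listed fold is not seen.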
